A study of Mus musculus with 24 samples.

Results

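The genes described here are 8 murine genes of major histocompatibility complex (MHC) class II antigen presentation, each measured with a row of its own: H2-Aa, H2-Ab1, H2-Eb1, H2-DMa, H2-Oa, H2-Ob, Cd74 and Ciita. They were chosen by symbol, as the rows annotated to exactly these names, and make up 8 of the 19938 genes that the arrays measured with a row naming only that gene. All 8 are represented by 1 row each, and all 8 had a mean above 5 on the log2 intensity scale in at least 1 group. So did 13231 of the 21789 rows that name only 1 gene.

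MHC class II molecules present peptides of proteins taken up from outside the cell to CD4+ T cells. An α and a β chain are assembled on the invariant chain, which fills the peptide groove until it is degraded in the endosome, after which the DM molecule exchanges its remnant for a peptide and the DO molecule holds DM back. Expression of these genes is governed by CIITA, a coactivator that binds no DNA itself and is held at class II promoters by the factors on their X and Y boxes. In the lung, dendritic cells, B cells, some macrophages and alveolar type II epithelial cells are known to carry class II.

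RNA came from the left lung lobe of male C57Bl/6N Tac mice kept under specific-pathogen-free conditions, either wild-type (WT) or Scnn1b-Tg, at postnatal day (PND) 0, 3, 10 and 42, with 3 arrays in each of the 8 groups. Scnn1b-Tg mice overexpress the β subunit of the epithelial sodium channel under the promoter of Scgb1a1, which is active in airway club cells, and have dehydrated airway surfaces; their WT littermates carry no transgene. Each array held pooled RNA; the methods state 3 mice per pool, whereas the labels list 2 animal numbers for all arrays except Scnn1b-Tg PND 42 replicate 3, for which they list 1. The comparisons asked how these genes changed over each age interval, whether the genotypes differed at an age, and whether the change over an interval differed between genotypes.

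Values are log2 intensities made by the authors with RMA (robust multi-array average, a summary of probe intensities after background correction and quantile normalization), so a difference of 1 is a doubling. Array medians lay between 4.79 and 4.996. The 24 arrays went into a limma fit with 1 mean per group (16 residual degrees of freedom), in which 21789 rows were tested and p-values adjusted by the Benjamini-Hochberg method within each comparison; a gene was called where the adjusted p did not exceed 0.05 and the change reached 2-fold. The p-values measure the spread between these pools. Scnn1b lay between 9.62 and 10.94 in Scnn1b-Tg arrays and between 6.37 and 8.22 in WT arrays, with no overlap at any age. The mean of 6 lung markers was 9.32 to 10.01 in all arrays, and that of 7 thymus markers, an organ near the lung that is rich in class II, was 3.82 to 4.52. The thymus mean rose with age. It was 3.82 to 3.93 at PND 0 and 4.385 to 4.52 at PND 42 in WT. In Scnn1b-Tg it was 3.84 to 3.86 and 4.335 to 4.342 at these ages.

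The promoters of the H2 genes are shown because class II genes are known for a shared pair of boxes. RefSeq promoter entries (build GRCm38.p6, 250 bases before to 50 after the annotated start) were at hand for H2-Aa, H2-Eb1, H2-Oa, H2-Ob and H2-DMa, all on chromosome 17. They were searched on both strands for 5 letters of the X box core, GCAAC, and 6 letters of the Y box, GATTGG, which is an inverted CCAAT box bound by NF-Y. The 150 bases before the start are shown for the 4 genes that held both, written 5′ to 3′ on the strand of the gene, with the X letters (left) and the Y letters (right) in capitals. The stretches are chr17:34287824-34287973 on the minus strand for H2-Aa, and on the plus strand chr17:34305717-34305866 for H2-Eb1, chr17:34092229-34092378 for H2-Oa and chr17:34238755-34238904 for H2-Ob.
H2-Aa: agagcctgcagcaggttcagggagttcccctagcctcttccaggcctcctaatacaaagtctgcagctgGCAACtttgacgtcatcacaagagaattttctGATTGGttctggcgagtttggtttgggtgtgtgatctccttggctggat
H2-Eb1: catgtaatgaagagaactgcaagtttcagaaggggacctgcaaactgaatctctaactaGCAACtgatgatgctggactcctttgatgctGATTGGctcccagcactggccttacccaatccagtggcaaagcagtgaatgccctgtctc
H2-Oa: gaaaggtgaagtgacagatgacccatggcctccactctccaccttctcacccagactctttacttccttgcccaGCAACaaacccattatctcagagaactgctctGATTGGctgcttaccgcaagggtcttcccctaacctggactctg
H2-Ob: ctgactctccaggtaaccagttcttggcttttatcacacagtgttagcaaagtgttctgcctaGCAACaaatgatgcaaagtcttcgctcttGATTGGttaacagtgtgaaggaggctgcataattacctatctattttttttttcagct

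Counted from the annotated start, with -1 the base before it, the X letters began at -81 in H2-Aa, -91 in H2-Eb1, -76 in H2-Oa and -87 in H2-Ob, and the Y letters at -49, -60, -44 and -58. Their first letters thus lay 32, 31, 32 and 29 bases apart. H2-Eb1 also held the Y letters on its other strand, at -35. Neither of the 2 H2-DMa entries held the pair: 1 entry held the Y letters alone, at -199, and the other the X letters alone, on the other strand. Alone, the letters were common, since 35.2% of 32851 RefSeq promoters held the X letters and 16.1% the Y letters. X letters placed 25 to 35 bases before Y letters, a distance set after these promoters had been seen, were in 67 promoters (0.204%) of 60 genes, among which H2-Eb2 was another class II gene. A match of letters is a description of the sequence and was not tested for binding.

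**Figure D1:**
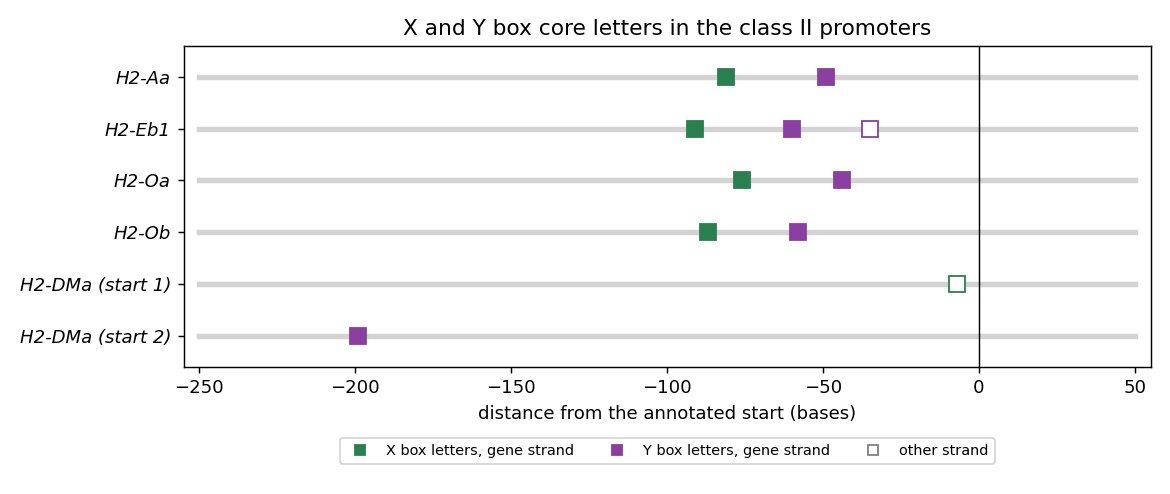
Position of the X box letters (green) and Y box letters (purple) in the promoter entries of 5 class II genes, as the distance in bases of the left end of each match from the annotated start (vertical line); filled squares are matches on the strand of the gene and open squares on the other strand, and grey bars span the bases searched. In H2-Aa, H2-Eb1, H2-Oa and H2-Ob the pair lies 29 to 32 bases apart, and neither H2-DMa entry has it.

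The classical chains rose throughout postnatal life in both genotypes. From PND 0 to PND 42, H2-Ab1, H2-Aa and H2-Eb1 rose 16.3-fold, 11.2-fold and 8.92-fold in WT lungs and 32.6-fold, 20.5-fold and 13.4-fold in Scnn1b-Tg lungs. Among the 21789 rows, H2-Ab1 ranked 14th by rise in WT and 5th in Scnn1b-Tg. In whole-lung RNA, more cells of a type and more RNA per cell cannot be told apart.

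H2-Aa, the α chain of I-A, had log2 intensities in WT lungs of 7.34, 6.90 and 6.97 at PND 0, 8.72, 8.13 and 8.67 at PND 3, 9.85, 9.71 and 9.93 at PND 10, and 10.66, 10.45 and 10.57 at PND 42. In Scnn1b-Tg lungs they were 6.38, 6.70 and 6.79 at PND 0, 7.30, 7.32 and 7.99 at PND 3, 9.20, 9.75 and 9.62 at PND 10, and 11.10, 11.04 and 10.80 at PND 42. Within a genotype no 2 ages overlapped, and the genotypes overlapped only at PND 10, with Scnn1b-Tg lower before and higher after. By interval, H2-Aa rose by 1.44, 1.32 and 0.73 in WT (SE 0.19 for each, limma adjusted p = 2.61e-06, 1.46e-04 and 5.04e-03) and by 0.92, 1.99 and 1.46 in Scnn1b-Tg (adjusted p = 4.12e-04, 2.45e-06 and 6.01e-06). In WT its steps became smaller with age, whereas in Scnn1b-Tg the middle step was the largest, and the first Scnn1b-Tg step and the last WT step stayed under 2-fold.

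H2-Ab1, the β chain of I-A, read 6.74, 6.16 and 6.49 at PND 0, 8.19, 7.96 and 8.15 at PND 3, 9.65, 9.47 and 9.56 at PND 10, and 10.55, 10.45 and 10.47 at PND 42 in WT lungs. The corresponding Scnn1b-Tg values were 5.40, 6.12 and 6.15, then 6.86, 7.12 and 7.76, then 9.12, 9.50 and 9.17, and finally 10.88, 11.06 and 10.81. As for H2-Aa, all Scnn1b-Tg arrays lay below all WT arrays at PND 0, narrowly, and at PND 3, mingled with them at PND 10 and lay above them at PND 42. The steps were 1.64, 1.46 and 0.93 in WT and 1.35, 2.02 and 1.65 in Scnn1b-Tg (SE 0.20 for each, limma adjusted p between 1.03e-06 and 1.11e-03 over the 6 steps).

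H2-Eb1 encodes the β chain of I-E, a molecule that C57BL/6 mice do not display because their α chain gene, H2-Ea, has lost its promoter. Its RNA was nevertheless measured, at 6.03, 5.86 and 5.81 at PND 0, 7.26, 6.66 and 7.19 at PND 3, 8.17, 7.81 and 7.92 at PND 10, and 9.11, 8.94 and 9.12 at PND 42 in WT. In Scnn1b-Tg lungs it was 5.44, 5.73 and 5.64 at PND 0, 5.76, 6.06 and 6.46 at PND 3, 7.72, 8.13 and 7.71 at PND 10, and 9.34, 9.50 and 9.20 at PND 42. The Scnn1b-Tg arrays lay below all WT arrays at PND 0 and PND 3, mingled with them at PND 10 and lay above them at PND 42. Its steps were 1.14, 0.93 and 1.09 in WT and 0.49, 1.76 and 1.49 in Scnn1b-Tg (SE 0.17 for each, limma adjusted p between 1.47e-06 and 0.0212). H2-Ea, by contrast, lay between 3.84 and 4.53 in all 24 arrays.

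Cd74, the invariant chain, read 7.77, 7.67 and 7.29 at PND 0, 8.58, 8.09 and 8.59 at PND 3, 9.61, 9.47 and 9.69 at PND 10, and 10.80, 10.50 and 10.61 at PND 42 in WT. In Scnn1b-Tg it was 7.24, 7.26 and 7.11 at PND 0, 7.49, 7.47 and 7.66 at PND 3, 9.24, 9.59 and 9.60 at PND 10, and 11.26, 11.41 and 11.18 at PND 42. The genotypes overlapped only at PND 10, and the Scnn1b-Tg arrays of PND 3 lay within the range of the WT arrays of PND 0. Cd74 rose by 0.85, 1.17 and 1.04 per interval in WT and by 0.34, 1.94 and 1.80 in Scnn1b-Tg (SE 0.14 for each), and of these 6 steps only the 0.34 missed the adjusted threshold (limma adjusted p = 0.057). Over the whole course it rose 8.35-fold in WT and 16.9-fold in Scnn1b-Tg.

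**Figure D2:**
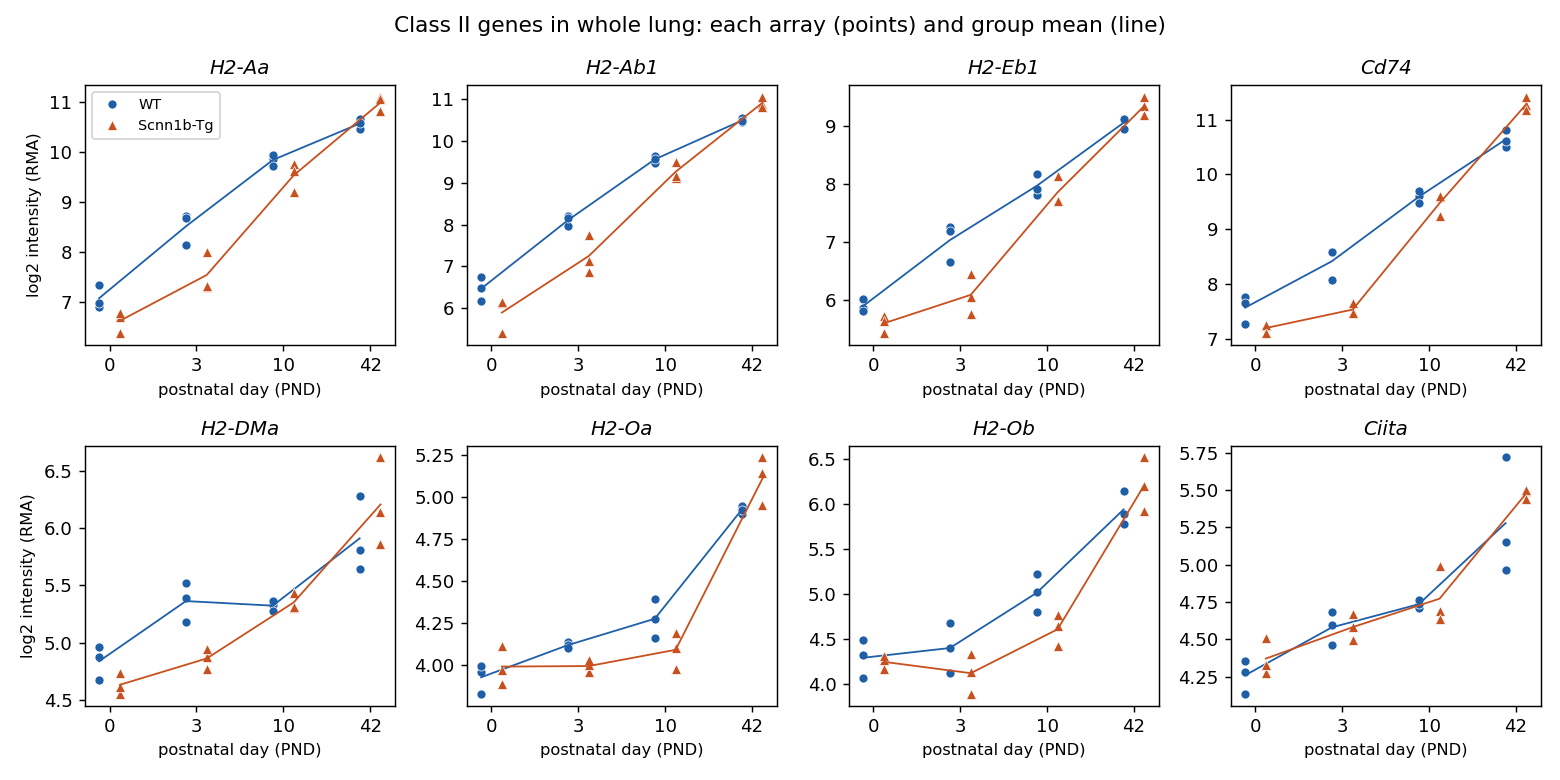
Log2 intensity (RMA) of the 8 class II genes in each of 24 whole-lung arrays by postnatal day, with WT as circles and Scnn1b-Tg as triangles, each point 1 array of pooled RNA and lines joining the means of 3 arrays; ages are evenly spaced, the vertical axes differ between panels, and levels are not comparable between genes. H2-Aa, H2-Ab1, H2-Eb1 and Cd74 are lower in all Scnn1b-Tg arrays at PND 3 and higher in all of them at PND 42, whereas H2-Oa and H2-Ob rise mainly after PND 10.

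H2-DMa, the α chain of the peptide-exchange molecule DM, followed a shallower course. WT arrays read 4.96, 4.68 and 4.87 at PND 0, 5.52, 5.39 and 5.18 at PND 3, 5.33, 5.28 and 5.36 at PND 10, and 6.28, 5.64 and 5.81 at PND 42, and Scnn1b-Tg arrays read 4.73, 4.56 and 4.61, then 4.88, 4.94 and 4.77, then 5.44, 5.30 and 5.31, and finally 6.14, 6.62 and 5.86. WT lungs reached by PND 3 a level that Scnn1b-Tg lungs reached by PND 10, and at PND 42 the arrays of each genotype were widely spread. The steps were 0.53, -0.04 and 0.59 in WT and 0.23, 0.49 and 0.85 in Scnn1b-Tg (SE 0.16 for each), of which the first and last WT steps and the last Scnn1b-Tg step passed the adjusted threshold (limma adjusted p = 9.87e-03, 6.78e-03 and 2.78e-04). The β chain genes of DM, H2-DMb1 and H2-DMb2, share a row and were not tested.

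H2-Oa and H2-Ob, the chains of DO, which in mice is found mainly in B cells and some dendritic cells, rose mainly after PND 10. H2-Ob lay between 4.06 and 4.68 in all WT arrays of PND 0 and PND 3 and between 3.89 and 4.33 in the Scnn1b-Tg arrays of those ages, at 5.02, 5.22 and 4.79 in WT and 4.76, 4.64 and 4.41 in Scnn1b-Tg at PND 10, and at 6.14, 5.78 and 5.89 in WT and 6.20, 6.51 and 5.91 in Scnn1b-Tg at PND 42. H2-Oa ran from 3.83 to 4.39 over the WT arrays and from 3.89 to 4.19 over the Scnn1b-Tg arrays of the 3 earlier ages, and then reached 4.90, 4.95 and 4.92 in WT and 5.24, 5.15 and 4.95 in Scnn1b-Tg at PND 42. The PND 42 arrays stood clear of all younger arrays of either genotype for both genes. Between PND 10 and PND 42, H2-Ob rose by 0.93 in WT and 1.60 in Scnn1b-Tg (SE 0.17, limma adjusted p = 2.21e-04 and 5.97e-07) and H2-Oa by 0.65 and 1.02 (SE 0.09, adjusted p = 1.99e-05 and 1.19e-07). H2-Ob also rose in WT from PND 3 to PND 10, by 0.61 (adjusted p = 0.0339). From PND 0 to PND 3 neither gene passed the adjusted threshold in either genotype (adjusted p between 0.0966 and 0.98).

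Ciita, the coactivator, rose less than the classical chains and Cd74. WT arrays read 4.28, 4.14 and 4.36 at PND 0, 4.46, 4.60 and 4.68 at PND 3, 4.71, 4.73 and 4.76 at PND 10, and 5.72, 5.15 and 4.97 at PND 42, while Scnn1b-Tg arrays read 4.28, 4.33 and 4.51, then 4.67, 4.50 and 4.58, then 4.99, 4.69 and 4.64, and finally 5.50, 5.50 and 5.44. The genotypes overlapped at every age. Only the step from PND 10 to PND 42 passed the adjusted threshold, by 0.54 in WT and 0.71 in Scnn1b-Tg (SE 0.14, limma adjusted p = 4.83e-03 and 5.25e-04). Over the whole course Ciita rose 2.03-fold in WT and 2.15-fold in Scnn1b-Tg, on a scale that compresses the changes of genes with low intensities.

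Over the course from PND 0 to PND 42, 7 of the 8 genes were called higher in WT, where 1.71% of all rows were called higher, and 8 of 8 in Scnn1b-Tg, where 2.48% were. The exception was H2-Oa in WT, at a log2 change of 0.9998, just short of 2-fold (limma adjusted p = 2.99e-08). The median change of the 8 genes was 2.36 in WT and 2.86 in Scnn1b-Tg, against -0.03 and -0.01 over all rows. The calls of H2-DMa and Ciita in WT turned on single arrays: without WT PND 42 replicate 1 their log2 changes were 0.89 and 0.80, without WT PND 0 replicate 2 they were 0.99 and 0.96, and under each of these the fold threshold was missed.

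The calls were also counted by interval. In WT, 3 of 8 genes were called higher from PND 0 to PND 3 (1.96% of all rows), 3 from PND 3 to PND 10 (1.05%) and 2 from PND 10 to PND 42 (1.70%). In Scnn1b-Tg, the counts were 1 of 8 (2.26% of all rows), 4 (0.817%) and 6 (1.79%). By the adjusted p alone, 5, 5 and 8 genes were higher in WT, beside 21.7%, 3.56% and 9.74% of all rows, and 3, 4 and 8 in Scnn1b-Tg, beside 24.8%, 2.09% and 10.4%. Neighbouring intervals share the arrays of the age between them. Several calls lay close to 2-fold: the WT call of Cd74 from PND 10 to PND 42 was missed without WT PND 10 replicate 2 (log2 change 0.98) or WT PND 42 replicate 1 (0.96), that of H2-Oa in Scnn1b-Tg was missed without PND 10 replicate 3 (0.97) or PND 42 replicate 1 (0.96), and H2-Aa in Scnn1b-Tg gained a call from PND 0 to PND 3 without PND 3 replicate 1 (1.04) or replicate 2 (1.03).

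**Figure D3:**
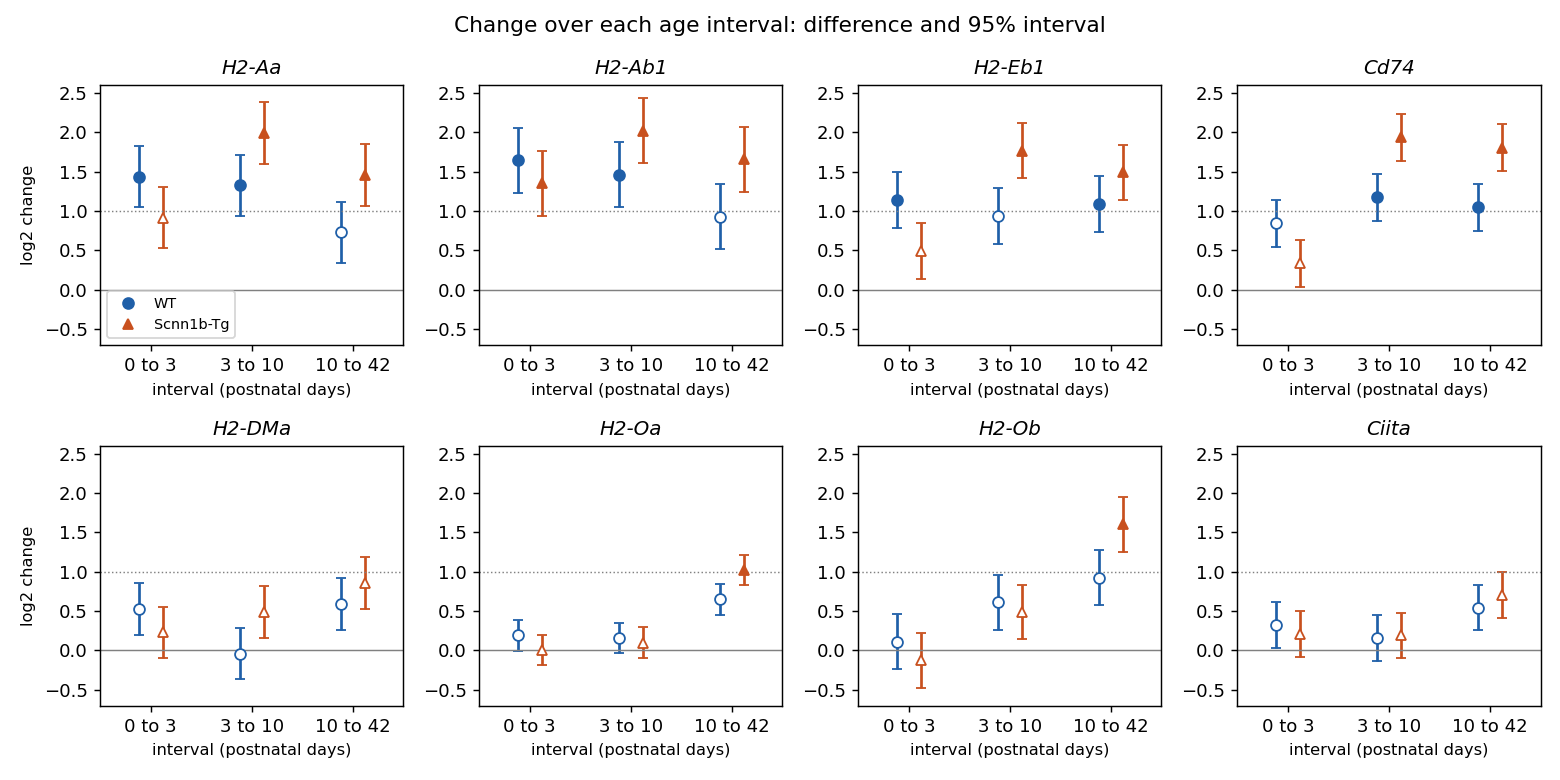
Log2 change of each class II gene over the intervals PND 0 to 3, 3 to 10 and 10 to 42, with WT as circles and Scnn1b-Tg as triangles; bars are 95% intervals from the limma fit on 24 arrays, filled symbols were called (both thresholds met) and the dotted line marks 2-fold. For H2-Aa, H2-Ab1, H2-Eb1 and Cd74 the change from PND 0 to 3 is smaller in Scnn1b-Tg and the later changes are larger.

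Comparison of the genotypes at each age gave no call among the 8 genes by both thresholds. This was so at PND 0, where 0.0138% of all rows were called in either direction, at PND 3 (0.0184%), at PND 10 (0.151%) and at PND 42 (0.34%). At PND 0, the 3 classical chains and Cd74 were lower in every Scnn1b-Tg array than in every WT array, by 0.30 to 0.57, with limma adjusted p-values of 0.894 or above. An unadjusted p under 0.05 was reached by 3, 5, 1 and 3 of the 8 genes at the 4 ages, beside 4.54%, 7.35%, 8.65% and 10.3% of all rows.

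At PND 3 the differences of H2-Aa, H2-Eb1, Cd74, H2-Ab1 and H2-DMa were further from 0 than at the other 3 ages. H2-Aa was 0.97 lower in Scnn1b-Tg (95% interval -1.36 to -0.58, limma adjusted p = 0.0641), H2-Eb1 0.94 lower (-1.29 to -0.59, adjusted p = 0.0425), Cd74 0.88 lower (-1.18 to -0.58, adjusted p = 0.0235), H2-Ab1 0.86 lower (-1.27 to -0.44, adjusted p = 0.208) and H2-DMa 0.50 lower (-0.83 to -0.17, adjusted p = 0.454). H2-Eb1 and Cd74 thus passed the adjusted p alone, as did 0.0229% of all rows in that direction, at 1.92-fold and 1.84-fold. Neither passed without moderation of the variance (adjusted p = 0.146 for Cd74 and 0.228 for H2-Eb1), with all 35556 rows tested (0.0941 and 0.128) or with the PND 3 arrays fitted alone (0.554 and 0.751). H2-Eb1 also missed with the replicate block (0.0869) and with the quantile normalization repeated (0.0703). The arrays of the genotypes did not overlap for these 5 genes or for H2-Oa, whose difference was -0.13 (adjusted p = 0.875). Ciita, in contrast, differed by 0.00 (-0.29 to 0.29), and H2-Ob overlapped at a difference of -0.28.

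The size of the difference at PND 3 depended on an array of each genotype. Without WT PND 3 replicate 2, the lowest WT array, H2-Aa, H2-Eb1 and Cd74 were each called lower (-1.16, -1.13 and -1.05; limma adjusted p = 9.94e-03, 4.74e-03 and 1.89e-03), and without Scnn1b-Tg PND 3 replicate 3, the highest transgenic array, H2-Aa, H2-Ab1 and H2-Eb1 were (-1.20, -1.11 and -1.13, adjusted p between 0.0108 and 0.0131). Without any of the 4 other arrays of PND 3, neither Cd74 (adjusted p between 0.201 and 0.313) nor H2-Eb1 (0.27 to 0.394) passed. The labels of WT replicate 2 and Scnn1b-Tg replicate 3 list adjoining animal numbers. Between these 2 pools alone, compared after the values were seen, the differences were -0.14 for H2-Aa, -0.20 for H2-Ab1, -0.20 for H2-Eb1 and -0.42 for Cd74. As the lowest WT and the highest transgenic array, they gave the smallest difference of any PND 3 pair for these genes. Over all rows, their deviations from the group means had r = -0.236. At PND 0, differences of H2-Aa between pools with adjoining numbers ran from -0.96 (WT replicate 1 and Scnn1b-Tg replicate 1) to -0.18 (WT replicate 3 and Scnn1b-Tg replicate 3). Whether pools with adjoining numbers shared litters was not tested.

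At PND 10 the classical chains, Cd74, H2-DMa, H2-Oa and Ciita overlapped between genotypes, with differences from -0.31 for H2-Aa (95% interval -0.70 to 0.08) to 0.04 for Ciita (-0.25 to 0.33). H2-Ob was lower in all Scnn1b-Tg arrays at that age, by 0.41 (-0.75 to -0.06; limma adjusted p = 0.442). It was the only gene of the 8 without overlap at PND 10.

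At PND 42 all 8 genes had a higher mean in Scnn1b-Tg. Cd74 was 0.65 higher, or 1.56-fold (95% interval 0.35 to 0.94, limma adjusted p = 0.0305), and passed the adjusted p alone, as did 0.817% of all rows in that direction. H2-Ab1 was 0.43 higher (0.01 to 0.84, adjusted p = 0.465), H2-Aa 0.42 (0.03 to 0.81, adjusted p = 0.436), H2-Eb1 0.29 (-0.06 to 0.64, adjusted p = 0.614) and H2-Oa 0.19 (-0.01 to 0.38, adjusted p = 0.513), each without overlap between the genotypes. H2-DMa, H2-Ob and Ciita overlapped, at differences of 0.30, 0.27 and 0.20. The adjusted p of Cd74 stayed at or under the threshold without WT PND 42 replicate 1, Scnn1b-Tg replicate 1 or Scnn1b-Tg replicate 3 (0.0313 to 0.0422), and rose to 0.144, 0.103 and 0.152 without WT replicate 2, WT replicate 3 and Scnn1b-Tg replicate 2. It was 0.0677 without moderation, 0.0604 with all rows tested and 0.148 with the PND 42 arrays fitted alone.

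**Figure D4:**
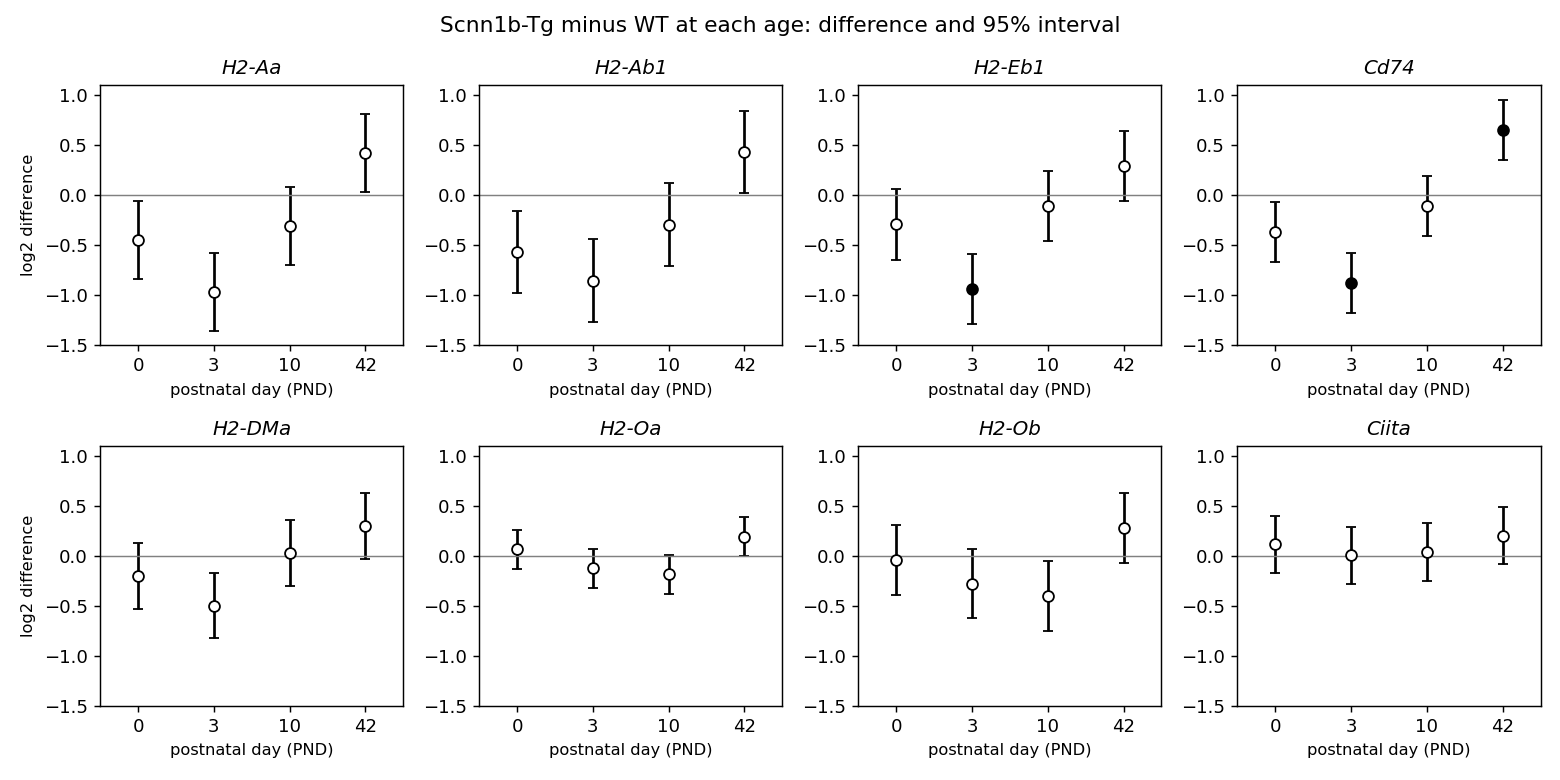
Difference in log2 intensity between Scnn1b-Tg and WT lungs at each postnatal day for the 8 class II genes, with 95% intervals from the limma fit (3 arrays per group); filled symbols passed an adjusted p of 0.05 and values below the grey line are lower in Scnn1b-Tg. The differences of H2-Aa, H2-Ab1, H2-Eb1 and Cd74 are lowest at PND 3, between -0.97 and -0.86, and above 0 at PND 42, whereas that of Ciita stays between 0.00 and 0.20.

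The change over an interval was compared between the genotypes by an interaction term. From PND 0 to PND 3, 0 of the 8 genes were called and 0% of all rows were, although the estimate was below 0 for all 8 genes and the unadjusted p was under 0.05 for H2-Eb1 and Cd74 (0.0134 and 0.0208), as it was for 4.75% of all rows. From PND 3 to PND 10, 0 were called (0.00918% of all rows), and the estimates for H2-Eb1 (0.83, SE 0.24), Cd74 (0.76, SE 0.20), H2-Aa (0.66, SE 0.27) and H2-DMa (0.53, SE 0.22) reached unadjusted p-values of 2.27e-03, 1.15e-03, 0.0208 and 0.0274, under 0.05 as for 6.64% of all rows. From PND 10 to PND 42, 0 were called (0.225% of all rows), with unadjusted p-values under 0.05 for 5 genes and for 9.85% of all rows, the lowest that of Cd74 (0.76, SE 0.20, limma adjusted p = 0.123).

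After these values had been seen, the change from PND 3 to PND 42 was also compared. Of the 8 genes, 3 were called, beside 0.174% of all rows: Cd74 rose by 1.52 more in Scnn1b-Tg (SE 0.20, limma adjusted p = 4.57e-04), H2-Aa by 1.39 more (SE 0.27, adjusted p = 0.0255) and H2-Eb1 by 1.23 more (SE 0.24, adjusted p = 0.028). The estimates for H2-Ab1 and Ciita were 1.29 (SE 0.28, adjusted p = 0.0642) and 0.20 (SE 0.20, adjusted p = 0.862). The interval was picked because these genes were lowest relative to WT at its beginning and highest at its end. Its p-values therefore cannot be taken at face value. Cd74 was called without each of the 12 arrays of that comparison in turn (adjusted p at most 2.85e-03), whereas H2-Aa and H2-Eb1 were lost without WT PND 3 replicate 1 or 3, WT PND 42 replicate 2 or 3, Scnn1b-Tg PND 3 replicate 1 or 2, or Scnn1b-Tg PND 42 replicate 2 (adjusted p between 0.061 and 0.0995). H2-Eb1 was also lost without WT PND 42 replicate 1 (adjusted p = 0.0557).

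Ordered by group means, H2-Aa, H2-Ab1 and H2-Eb1 shared an order from high to low of Scnn1b-Tg PND 42, WT PND 42, WT PND 10, Scnn1b-Tg PND 10, WT PND 3, Scnn1b-Tg PND 3, WT PND 0 and Scnn1b-Tg PND 0. In that order the PND 10 groups overlapped for all 3 genes, as did Scnn1b-Tg PND 3 and WT PND 0 for H2-Aa and H2-Eb1, and the other neighbours did not overlap. Cd74 had the same order except that WT PND 0 came before Scnn1b-Tg PND 3, with overlap. H2-DMa, H2-Oa, H2-Ob and Ciita likewise had the PND 42 groups on top, but among the younger groups all neighbours except 1 pair per gene overlapped. Their lowest groups were Scnn1b-Tg PND 0, WT PND 0, Scnn1b-Tg PND 3 and WT PND 0, in turn.

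Across the 24 arrays, the log2 intensities of H2-Aa, H2-Ab1, H2-Eb1 and Cd74 correlated with Pearson r between 0.973 and 0.996 over their 6 pairs, and the 22 pairs that involve the other genes had r between 0.836 and 0.964. After removal of the group means, which takes out age and genotype, the 6 pairs still had r between 0.342 and 0.841, and the others between -0.08 and 0.545. Arrays of a group thus stood high or low for the classical chains together. Cd74 followed H2-Aa and H2-Eb1 (r = 0.714 and 0.659) more closely than H2-Ab1 (0.342). H2-DMa and Ciita did not follow them: their r with the mean of the 4 genes was 0.138 and 0.009 after removal of the group means. H2-Ob and H2-Oa lay between, at 0.453 and 0.286. All points come from the same 24 pools and share the normalization of each array, so these are descriptions.

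The 10 genes most like the mean of the 4 genes over the 24 arrays, apart from the class II genes, were Itgb7, Plbd1, Pcolce2, Scrn1, Clec11a, Bpifb1, Cst3, Gm2a, Cd2 and Klrg1, with r between 0.927 and 0.952. Itgb7 encodes an integrin β chain of lymphocytes and other leukocytes, Cst3 the protease inhibitor cystatin C, and Cd2 an adhesion molecule of T cells. When the group means were removed, the most alike were Gm11529, Pfn4, Tinag, Sh3bgrl, Pkia, Sfxn4, Cntn1, Omp, Myl2 and Vkorc1, with r between 0.756 and 0.874, and none of these was among the former 10. Of these, 5 had no group mean above 5. Of the marker lists, the mean of 8 T cell genes had the highest r over the arrays (0.955), followed by 12 dendritic cell genes (0.920), and alveolar type II genes had 0.0228. The 7 thymus markers had 0.881. Of these only Cd8b1 was called from PND 0 to PND 42, higher by 1.29 in WT and 1.15 in Scnn1b-Tg (SE 0.14, limma adjusted p = 2.04e-07 and 9.50e-07). After removal of the group means the thymus markers had the highest r of the lists (0.559), followed by T cells (0.292), although their mean stayed at 4.52 or below in every array. Whether traces of thymus entered some pools was not tested.

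Of 15 other listed genes of the class II pathway, 13 were measured and 8 had a mean above 5 in a group. In WT, 0 were called from PND 0 to PND 42, with 5 higher and 2 lower by the adjusted p alone, and in Scnn1b-Tg 1 was called higher, with 9 higher and 1 lower. By the adjusted p alone, 23% of all rows were higher in WT and 22.6% in Scnn1b-Tg, and 1.71% and 2.48% were called higher. The called gene of the list was Ctss, cathepsin S, the protease that degrades the invariant chain, which rose by 1.52 in Scnn1b-Tg (SE 0.13, limma adjusted p = 5.84e-09) and by 0.33 in WT (adjusted p = 0.0311). At PND 42 Ctss lay between 10.50 and 10.81 in Scnn1b-Tg and between 9.60 and 9.82 in WT, a difference of 0.97 (SE 0.13, adjusted p = 1.08e-04). Lgmn, the lysosomal protease legumain, differed by 0.94 at that age (SE 0.14, adjusted p = 5.16e-04). The median change of the list from PND 0 to PND 42 was 0.25 in WT and 0.53 in Scnn1b-Tg, against 2.36 and 2.86 for the 8 genes. H2-Eb2, whose promoter held the X and Y letters, had group means between 3.81 and 4.79 and rose by 0.98 in WT and 0.72 in Scnn1b-Tg over the course (SE 0.14, adjusted p = 9.14e-06 and 2.94e-04).

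Of 17 listed genes of factors that act on class II promoters, 16 were measured. From PND 0 to PND 42, 0 were called higher and 2 lower in WT, with 1 higher and 6 lower by the adjusted p alone, and 0 were called higher and 1 lower in Scnn1b-Tg, with 2 higher and 7 lower. Over all rows, 9.73% were called lower in WT and 8.7% in Scnn1b-Tg, and by the adjusted p alone 33.3% and 31.1% were lower, so the list's counts of lower genes were near the background. Those called were subunits of NF-Y, the factor of the Y box: Nfya fell by 1.20 in WT (SE 0.19, limma adjusted p = 2.49e-05) and Nfyc by 1.02 in WT and 1.02 in Scnn1b-Tg (SE 0.11, adjusted p = 3.21e-07 in each). Rfxap, a subunit of the X box factor RFX, fell by 0.96 in WT and 0.93 in Scnn1b-Tg (SE 0.17, adjusted p = 9.87e-05 and 1.50e-04), short of 2-fold. Irf4 rose by 0.45 and 0.75 (SE 0.12, adjusted p = 2.96e-03 and 1.92e-05). No gene of the list passed the adjusted threshold between the genotypes at any age.

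Of 15 listed genes of the MHC class I pathway, which presents peptides from inside the cell, 11 were measured. The class I heavy chains on the list, H2-K1, H2-D1, H2-T23 and H2-Q7, had no row of their own, so the list covers the light chain B2m and genes of peptide supply and loading only. From PND 0 to PND 42, 2 of the 11 were called higher in WT and 4 in Scnn1b-Tg, with a median change of 0.52 and 0.82. Over all rows, 1.71% were called higher in WT and 2.48% in Scnn1b-Tg. Psmb8 and Psmb9, subunits of the immunoproteasome, rose by 1.04 and 1.27 in WT and by 1.95 and 1.84 in Scnn1b-Tg (SE 0.21 for each, limma adjusted p between 1.62e-07 and 2.86e-04). None of the list passed the adjusted threshold between the genotypes.

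Markers of cells known to carry class II were summarised beside these genes. The mean of 9 B cell markers at PND 3 was 4.88 to 5.04 in WT and 4.59 to 4.80 in Scnn1b-Tg, without overlap, and at PND 10 it was 5.002 to 5.19 and 4.62 to 4.88, again without overlap, although the classical chains overlapped at PND 10. Ms4a1, the gene of CD20, had a mean of 6.49 in WT and 5.89 in Scnn1b-Tg at PND 3, and Cd79a one of 5.76 and 5.07, but 0 of 9 B cell markers passed the adjusted threshold between the genotypes at either age. The 12 dendritic cell markers gave 4.58 to 4.68 in WT and 4.54 to 4.64 in Scnn1b-Tg at PND 3, with overlap. At PND 42 they gave 5.04 to 5.09 in WT and 5.36 to 5.44 in Scnn1b-Tg, and 9 alveolar macrophage markers gave 7.03 to 7.12 and 7.58 to 8.31. Itgax, the gene of CD11c, was called higher by 1.96 at PND 42 (SE 0.29, limma adjusted p = 5.16e-04), and was the only dendritic cell marker called. The paper names Itgax both among dendritic cell genes and as a marker of resident alveolar macrophages, so its call cannot be assigned to either cell type. Of all rows, 0.326% were called higher at that age. By the adjusted p alone Flt3, the receptor on which dendritic cells depend, was also higher, by 0.54 (SE 0.11, limma adjusted p = 0.0196), and the other 10 markers missed the threshold, with 3 of the 12 estimates below 0 (Zbtb46 -0.17, Siglech -0.25 and Ccr7 -0.09). Without Itgax the mean of the remaining 11 markers was 4.87 to 4.93 in WT and 5.08 to 5.10 in Scnn1b-Tg, a level computed after the values had been seen. Of the 9 alveolar macrophage markers, Chil3, Cd68 and Mrc1 were called higher, while the estimates for Siglecf and Krt79 were -0.24 and -0.47. The mean of 5 general leukocyte markers at PND 42 was 8.07 to 8.33 in WT and 8.51 to 9 in Scnn1b-Tg. That of 8 interstitial macrophage and monocyte markers was 6.34 to 6.73 and 6.82 to 7.32. The genotypes did not overlap at PND 10 in these lists either. However, no marker of either list passed the adjusted p at that age (limma, lowest 0.0631 for Laptm5 and 0.136 for C1qb). The PND 10 estimates for Ptprc and Ccr2 were below 0, at -0.14 and -0.21. No interstitial macrophage and monocyte marker passed at PND 42 (lowest adjusted p = 0.254, for C1qb). B cell and T cell list means overlapped at PND 42. Of the T cell markers, Il7r was called higher at that age, by 1.11 (SE 0.20, limma adjusted p = 4.72e-03). The other T cell markers missed the threshold there (adjusted p 0.889 or above). At PND 10 only Cd2 of that list passed the adjusted p, at 0.78 lower (SE 0.17, adjusted p = 0.0386). Of the leukocyte markers only Laptm5 passed the adjusted p at PND 42, at 0.79 higher (SE 0.13, limma adjusted p = 1.37e-03), short of 2-fold.

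Over the course from PND 0 to PND 42, 4 of 9 B cell, 4 of 12 dendritic cell, 4 of 8 T cell and 2 of 9 alveolar macrophage markers were called higher in WT, and 6, 5, 4 and 6 were in Scnn1b-Tg. Over all rows, 1.71% were called higher in WT and 2.48% in Scnn1b-Tg. None of these lists had a called lower gene, beside 9.73% of all rows in WT and 8.7% in Scnn1b-Tg. The mean of 8 alveolar type II cell markers, another class II cell of the lung, was 10.59 to 11.07 in WT and 10.60 to 11.08 in Scnn1b-Tg at PND 3, and 10.87 to 11.28 and 11.28 to 11.50 at PND 42. Its markers did not move together from PND 0 to PND 42. Abca3 and Slc34a2 were called lower in WT, at -1.31 and -1.07 (limma adjusted p = 2.19e-06 and 1.72e-04). Lyz2 was called higher in Scnn1b-Tg, at 1.58 (adjusted p = 3.93e-07). What part these markers' cells had in the class II differences was not tested.

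**Figure D5:**
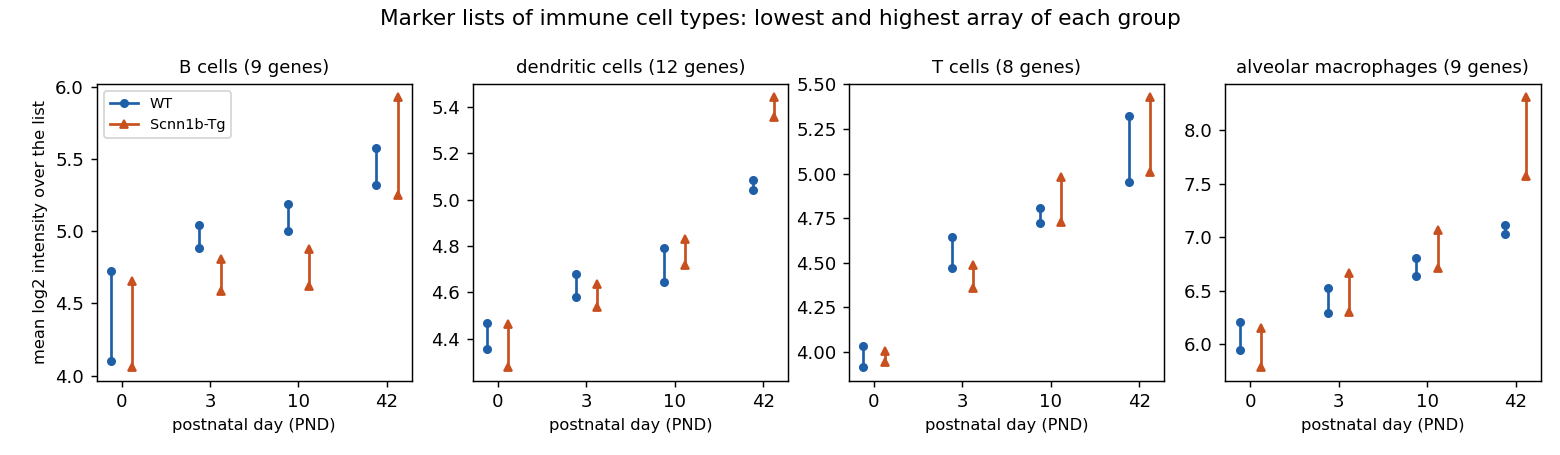
Mean log2 intensity over marker lists of B cells, dendritic cells, T cells and alveolar macrophages by postnatal day; each line spans the lowest to the highest of 3 arrays of WT (circles) or Scnn1b-Tg (triangles), ages are evenly spaced and the vertical axes differ. The B cell list means of the genotypes do not overlap at PND 3 and PND 10, nor do the dendritic cell and alveolar macrophage list means at PND 42, where 1 of 12 and 3 of 9 markers were called. Lists of general leukocytes and of interstitial macrophages and monocytes, not drawn, also do not overlap at PND 10 and PND 42. Of their markers only Laptm5, at PND 42, passed the adjusted p.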

How the data were processed

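Whole-lung RNA of 24 pools was measured with 1 oligonucleotide array for each pool (Affymetrix, type Mouse Gene 1.0 ST). The deposited values are log2 intensities that the authors made with Partek (version 6.5 per the labels) by RMA, with background correction adjusted for GC content and probe sequence, quantile normalization and median polish, which fits 1 value per transcript cluster and compresses changes near background. Of 35556 rows, the 21789 annotated to 1 gene (19938 genes) were tested, 1621 named several genes and 12146 none. Gene names came from the platform annotation, with symbols checked against RefSeq by Entrez ID. Group means, age steps, genotype differences and interactions were fitted with limma 3.58.1 in R 4.3.3 (empirical Bayes moderation, no covariates, 16 residual degrees of freedom), and p-values were adjusted by the Benjamini-Hochberg method over all tested rows. Log2 intensity depends on the probes, so levels were not compared between genes, and arrays carry no read depth: the 3 arrays per group limit the precision. The procedure was tested on simulated data. The genes and lists were chosen with earlier results of these data known, and the rule for named genes took the 8 class II genes, up to 4 called genes of each list, Scnn1b and the 10 genes most alike by each correlation. Lgmn, H2-Eb2, H2-Ea, Rfxap, Irf4, Ms4a1, Cd79a, Flt3, Zbtb46, Siglech, Ccr7, Siglecf, Krt79, Laptm5, C1qb, Ptprc and Ccr2 fall outside it and were chosen after their values were seen. Alternatives covered the prior, the replicate block, the rows tested, the normalization, the fold threshold, the arrays fitted and each array left out. No columns of the authors' own comparisons were used.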

Additional observations from a re-analysis of the deposited data

Results flagged for a closer look

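Comparison of the change from PND 3 to PND 42 between genotypes, chosen after the values had been seen, called 3 genes. The interval was picked from the differences of these same genes, so its p-values cannot be taken at face value. None of the class II genes was called over the intervals planned beforehand. The rise was larger in Scnn1b-Tg by 1.39 on the log2 scale for H2-Aa (SE 0.27, limma adjusted p = 0.0255), by 1.23 for H2-Eb1 (SE 0.24, adjusted p = 0.028) and by 1.52 for Cd74 (SE 0.20, adjusted p = 4.57e-04). With each of the 12 arrays left out in turn, the highest adjusted p was 0.0912 for H2-Aa, 0.0995 for H2-Eb1 and 2.85e-03 for Cd74. Groups of 3 arrays were too small to be searched for single outlying arrays.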

How the results depend on the processing

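No single-gene result changed direction under any alternative: of 2368 values, 2275 kept their side of the thresholds, 32 lost a call and 61 gained one. Counts of the 8 genes called moved most with the fold threshold. Without it, 2 were called between genotypes at PND 3, 1 at PND 42, 5, 5 and 8 over the successive WT intervals and 3 from PND 0 to PND 3 in Scnn1b-Tg. At 1.5-fold the counts were 2 and 1 between genotypes at PND 3 and PND 42, 5 and 7 for WT from PND 3 to PND 10 and from PND 10 to PND 42, and 2 for Scnn1b-Tg from PND 0 to PND 3. Repeating the quantile normalization gave 4 calls for WT from PND 10 to PND 42, and this or subtracting the array median gave 2 for Scnn1b-Tg from PND 0 to PND 3. For the interaction from PND 3 to PND 42, 1 gene was called without moderation of the variance, 1 with all rows tested and 1 with the compared arrays alone. The causes were not tested. Leaving out single arrays gave 0 to 3 calls between genotypes at PND 3, 1 to 3 for WT from PND 10 to PND 42, 1 to 2 for Scnn1b-Tg from PND 0 to PND 3 and 1 to 4 for the interaction from PND 3 to PND 42.

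With the replicate block, the called counts were the same in all 16 comparisons, including 0 between genotypes at each age, and the adjusted p of H2-Eb1 at PND 3 became 0.0869. Arrays sharing a replicate number deviated together with r from -0.255 to 0.299, above 0.1 in 5 of 12 pairs. Pairs of unlike number had r from -0.391 to 0.471, above 0.1 in 7 of 24. The ranges overlapped, and the numbers were not taken as pairs. Averaging the rows of each gene, which left 19938 genes to adjust over, kept every called count of the 8 genes, and the adjusted p of H2-Eb1 and Cd74 at PND 3 became 0.0343 and 0.019. With 3 pools per group the 95% interval of a genotype difference was wide, for example -0.03 to 0.62 for H2-DMa at PND 42.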
